A study of Mus musculus with 18 samples.

Results

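Open chromatin at 6 genes that set the threshold of T cell receptor (TCR) signalling was followed in naive CD4 T cells of the mouse: the tyrosine phosphatase genes Ptprc, Ptpn22, Ptpn6 and Ptpn2, the kinase gene Csk and the gene of its membrane adaptor, Pag1. Merging the peaks of the 18 libraries gave 33115 union regions, and a region was counted for a gene when the nearest protein-coding gene end within 100000 bp of the region's centre belonged to that gene. This gave 36 of the 33115 regions: 5 for Ptprc, 3 for Ptpn22, 4 for Ptpn6, 1 for Ptpn2, 6 for Csk and 17 for Pag1. The rule used position and no measured difference. Regions are numbered along the chromosome within each gene.

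The T cell receptor has no kinase of its own and is phosphorylated by Lck and Fyn, Src family kinases that are held inactive by phosphate on a tyrosine in their tail. Csk puts that phosphate on, and CD45, the protein of Ptprc, takes it off. Phosphatases downstream then limit how long the activated kinases and their substrates stay phosphorylated, so these genes are known as brakes and gates of T cell activation, and as controls on the weak, tonic signal that naive T cells receive from self peptides.

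The cells were naive CD4+ T (TN) cells of wild-type, untreated C57BL6/J mice, sorted by Nr4a1-dsGFP, in which short-lived GFP reports on Nr4a1 and so on recent TCR signals. The high fraction had high and the low fraction low tonic TCR stimulation (TTS). Each fraction was taken from 3 organs, namely mesenteric lymph nodes, axillary lymph nodes and spleen, with 3 biological replicates in each of the 6 groups. The level of stimulation is thus read from a reporter and not set by a treatment, and the labels used here give no age. ATAC-seq, in which Tn5 transposase inserts adapters into open DNA, was run on the fractions, and the question was how tonic stimulation and the organ bear on chromatin.

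The libraries held 14372 to 23129 peaks and differed in depth. The background recovered from the peak values was 16.6 ± 0.0549 reads per 10 kb in mesenteric high and 12.2 ± 0.471 in mesenteric low libraries, 13.7 ± 0.441 in spleen high and 12.5 ± 2.40 in spleen low libraries, and 9.89 ± 0.308 in axillary high and 9.08 ± 0.541 in axillary low libraries (SD, n = 3 each). The caller's fragment length was not read from a label but taken as the width of the narrowest peak of each list. The background values above rest on this width too. It was 216 to 236 bp in 6 libraries, which were 5 of the 6 axillary ones and 1 of the spleen low ones. In the other 12 it was 161 to 176 bp. Of 8 CD4 T cell marker genes, 5 had a region with a peak in all 18 libraries, and all 8 had a region. Of 6 B cell markers none had such a region and Cd79a, Cd79b and Ms4a1 had no region at all, and of 6 myeloid markers none had one and Cd14, Csf1r and Lyz2 had no region at all. The regions of the 6 B cell markers with a peak numbered 0 to 2 per high library and 0 to 1 per low library, and those of the 6 myeloid markers 0 to 6 per high library and 0 to 2 per low library. Of the other lists, 1 of 2 CD8 T, 1 of 4 NK, 1 of 4 dendritic, 1 of 5 erythroid, 2 of 3 regulatory T and 1 of 4 effector or memory T cell genes had a region in all 18, and Foxp3 had none at all. In these pooled cells, more open cells and more open chromatin per cell cannot be told apart. The part of depth, fragment length and other cells in the results below was not tested unless a value is given.

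Promoter sequences show where the peaks lay against annotated starts. Windows of 250 bases before a start were taken from RefSeq (GRCm38.p6), which gave 7 windows for 4 of the genes, with none used here for Ptpn2 and Pag1. Of these 7 windows, 2 overlapped a region: that of an inner start of Ptpn22, open in all 18 libraries, and that of an inner start of Csk, open in 9. For comparison, 34.1% of all 32619 windows overlapped a region and 21.9% overlapped one with a peak in all 18 libraries. Both open windows are shown, with 2 windows that overlapped no region, of Ptprc and of Ptpn6. Each is printed 5′ to 3′ on the gene's strand up to the base before the start, and capitals mark matches to the motifs named after them, on either strand, other than CANNTG.
Ptpn22 inner start, chr3:103860027-103860276, plus strand: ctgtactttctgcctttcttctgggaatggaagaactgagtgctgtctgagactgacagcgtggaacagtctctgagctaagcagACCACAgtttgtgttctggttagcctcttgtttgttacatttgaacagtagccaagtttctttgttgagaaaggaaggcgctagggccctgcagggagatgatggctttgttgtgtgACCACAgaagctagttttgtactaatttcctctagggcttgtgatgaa
Csk inner start, chr9:57645654-57645903, minus strand: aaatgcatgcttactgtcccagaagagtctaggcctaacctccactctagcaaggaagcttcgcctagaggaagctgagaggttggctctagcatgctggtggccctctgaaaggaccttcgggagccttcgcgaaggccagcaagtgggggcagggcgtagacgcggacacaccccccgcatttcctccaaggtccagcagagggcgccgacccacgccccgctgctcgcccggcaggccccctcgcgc
Ptprc inner start, chr1:138175127-138175376, minus strand: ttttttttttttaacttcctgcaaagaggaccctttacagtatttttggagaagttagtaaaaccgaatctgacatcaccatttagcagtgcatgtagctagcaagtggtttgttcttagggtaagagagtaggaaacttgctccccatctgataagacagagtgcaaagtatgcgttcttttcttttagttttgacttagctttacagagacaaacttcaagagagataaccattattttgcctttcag
Ptpn6 start, chr6:124738710-124738959, minus strand: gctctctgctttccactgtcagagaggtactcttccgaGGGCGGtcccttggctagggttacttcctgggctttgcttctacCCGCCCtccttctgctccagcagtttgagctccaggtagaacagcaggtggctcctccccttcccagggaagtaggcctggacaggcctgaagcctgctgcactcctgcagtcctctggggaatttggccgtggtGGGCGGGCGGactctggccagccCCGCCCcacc

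The motifs searched were TGTGGT (the core of the Runx site), GGGCGG (the GC box), CCGGAA (Ets), TGANTCA (AP-1), ATCAAAG (Tcf and Lef), TGACGTCA (CRE), AAAGGTCA (the site of Nr4a factors), GCGTGGGCG (Egr) and CANNTG (the E-box). The open Ptpn22 window held TGTGGT at 2 places, read as ACCACA in the sequence above, 165 and 48 bases before the start. TGTGGT occurred in 13.9% of all windows and in 9.40% of the 7150 windows that overlapped a region with a peak in all 18 libraries. The Ptpn6 window, which overlapped no region, held GGGCGG at 5 places, of which the pair 33 and 29 bases before the start overlap each other. GGGCGG occurred in 33.0% of all windows and in 67.8% of the 7150 open ones, so the Ptpn6 window carried a motif that was more frequent in open windows. The Csk and Ptprc windows shown held CANNTG, at 1 and 2 places, and none of the other 8 motifs, and neither did any window of the 4 genes hold AAAGGTCA, which occurred in 1.35% of all windows and 0.629% of the open ones. CANNTG occurred in 66.2% of all windows and 52.7% of the open ones, and also once in each of the Ptpn22 and Ptpn6 windows shown. The other 5 motifs, with no match in the 7 windows, occurred in 0.540% to 12.1% of all windows. GC content was 46.0% in the Ptpn22 window, 64.0% in the Csk window, 36.8% in the Ptprc window and 63.2% in the Ptpn6 window, beside a median of 52.4% over all windows. A match is a description of letters and not a site.

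Most regions of the 6 genes lay away from gene ends and few were open in every library. Only 5 of the 36 regions (13.9%) had a peak in all 18 libraries, against 26.4% of all regions. A further 5 regions had a peak in 14 to 17 libraries, 12 in 5 to 13 and 14 in 1 to 4, and 7 of these last were peaks of a single library. Only 2 of the 36 regions (5.56%), those at an end of Ptpn2 and of Pag1, were centred within 1000 bp of a gene end, against 30.5% of all regions. Inside the gene bodies lay 23 regions, and 13 lay outside. No test was made of these shares.

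**Figure D1:**
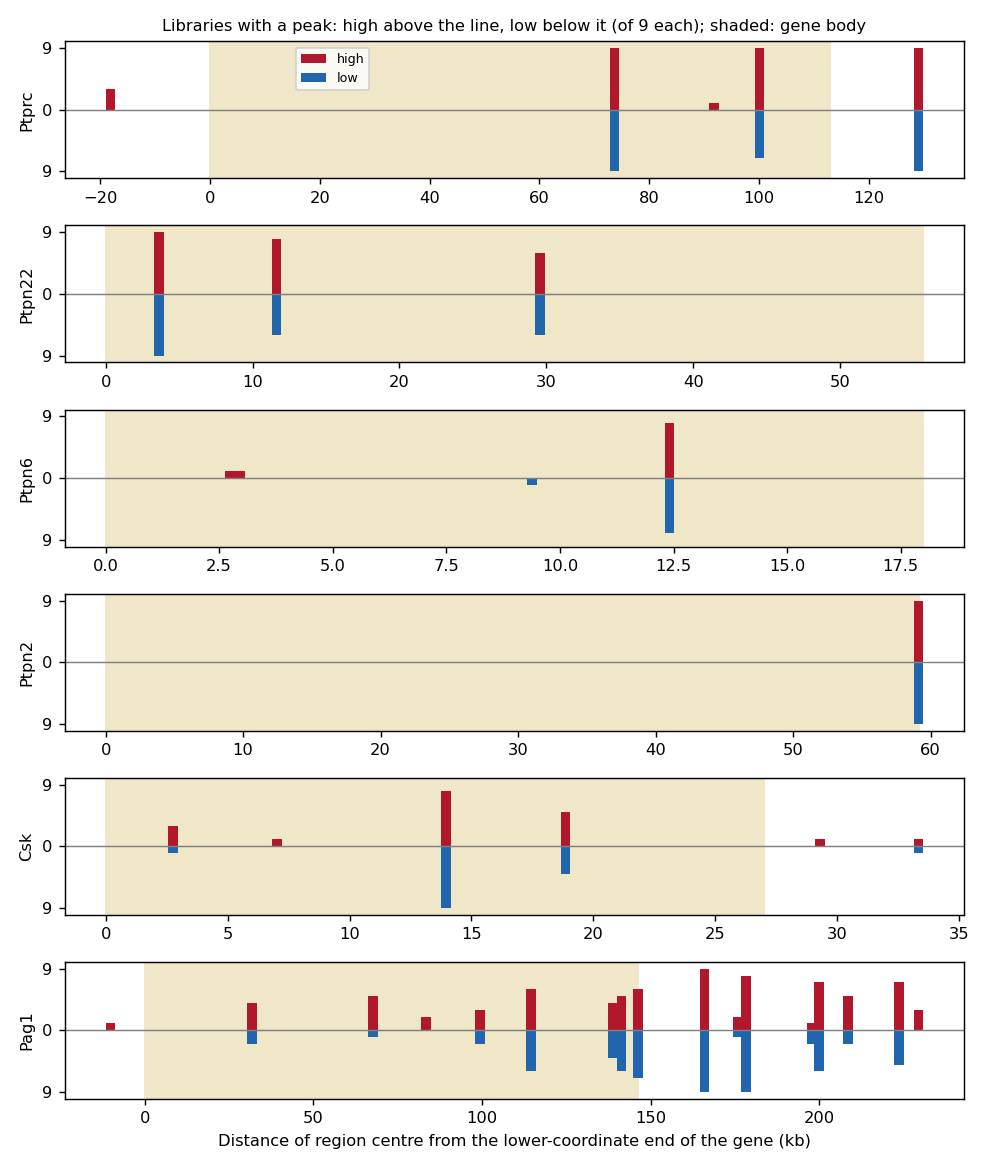
Number of libraries with a peak in each region, of 9 high libraries (bars up) and 9 low libraries (bars down), against the distance in kb of the region's centre from the lower-coordinate end of the gene; the gene body is shaded. The single Ptpn2 region sits at the gene end, the regions of Ptprc, Ptpn22, Ptpn6 and Csk that most libraries share sit inside the gene or beyond it, and those of Pag1 continue up to 83205 bp beyond its higher-coordinate end.

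Ptprc encodes CD45, the transmembrane phosphatase that removes the inhibitory phosphate from Lck. It had 5 regions, of which 2 were open in all 18 libraries. Region 2 (chr1:138136298-138136804, mm10) lies inside the gene, 39205 bp from its nearer end, and region 5 (chr1:138191599-138192304) lies 16196 bp beyond the end that carries the annotated starts. Region 4 (chr1:138162642-138163235), also inside the gene, had a peak in 16 libraries. Neither of the 2 Ptprc windows overlapped any of them.

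The height of a peak is given as summit reads, the whole number of reads stacked at its highest point after extension to the fragment length, recovered from the authors' fold enrichment and −log10 p. At Ptprc region 2 these were 31, 33 and 34 in mesenteric high libraries and 18, 19 and 17 in mesenteric low libraries. They were 19, 24 and 19 in spleen high and 23, 25 and 20 in spleen low libraries, and 15, 16 and 19 in axillary high and 24, 19 and 19 in axillary low libraries. The 3 mesenteric high libraries were the highest of all 18, and they were also the deepest, so values were next scaled to 100000 summit reads over the 8446 regions with recovered reads in every library.

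On that scale Ptprc region 2 averaged 11.4 ± 0.448 in mesenteric high and 7.95 ± 0.442 in mesenteric low libraries, 9.48 ± 1.28 in spleen high and 10.4 ± 0.999 in spleen low libraries, and 8.38 ± 1.22 in axillary high and 10.4 ± 1.24 in axillary low libraries (SD, n = 3 each). The scaled values of the mesenteric groups did not overlap, with high above low, and those of the axillary groups did not overlap either, with high below low. Among the 8446 regions, 11.1% had all 3 mesenteric high libraries above all 3 low ones, and 5.9% had all 3 axillary high libraries below all 3 low ones. The limma difference, high minus low on the log2 scale, was 0.52 ± 0.19 (SE) in mesenteric nodes with an adjusted p of 0.177, −0.14 ± 0.19 in the spleen with an adjusted p of 0.880 and −0.32 ± 0.19 in axillary nodes with an adjusted p of 0.626. No organ passed the threshold of 0.05, which 1.53% of the 8446 regions did in mesenteric nodes, 0.225% in the spleen and 0.32% in axillary nodes. The test of whether the difference itself differed between organs gave an unadjusted p of 0.00684 and a limma adjusted p of 0.271. That test had an unadjusted p under 0.05 in 10.5% of the 8446 regions and passed adjustment in 19 (0.225%), and of the 5 fitted regions of the 6 genes 1 had such an unadjusted p and 0 passed.

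Ptprc region 5 did not pass the test between the fractions and passed one between organs. Its summit reads were 20, 23 and 21 in mesenteric high and 22, 17 and 21 in mesenteric low libraries, 26, 19 and 22 in axillary high and 26, 26 and 15 in axillary low libraries, and 25, 20 and 17 in spleen high and 17, 22 and 21 in spleen low libraries. The raw reads thus overlapped between the fractions in each organ. Scaled, they averaged 8.13 ± 1.13 in mesenteric, 11.2 ± 2.01 in axillary and 9.35 ± 1.53 in spleen libraries (SD, n = 6 each). Mesenteric minus axillary was −0.45 ± 0.14 (SE) on the log2 scale with a limma adjusted p of 0.0273, a contrast in which 10.9% of the 8446 regions were called. With the fragment length class as a covariate, an alternative added after seeing the data, the difference was −0.30 with an adjusted p of 0.576. With the genome background as the scale it was −0.28 with an adjusted p of 0.153, and with the authors' fold in place of the scaled reads −0.08 with an adjusted p of 0.568. Over the 23 alternatives tried the difference stayed negative, 14 kept the call, and the adjusted p ranged over 0.00550 to 0.576. The call was also lost without mesenteric high replicate 1 or 3, mesenteric low replicate 2, axillary high replicate 1, or axillary low replicate 1 or 2, where the adjusted p was 0.0554 to 0.0915. The axillary libraries were also the shallowest on average, and 5 of 6 had the long fragment length, so that organ and library properties can largely not be told apart here.

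Ptprc region 4 had 23, 20 and 26 summit reads in mesenteric high libraries and 12 and 15 in the 2 mesenteric low libraries with a peak. It had 17, 16 and 16 in axillary high and 15, 12 and 13 in axillary low libraries, and 10, 13 and 11 in spleen high libraries and 11 and 18 in the 2 spleen low libraries with a peak. These reads were not scaled for depth. The authors' fold overlapped in mesenteric nodes, at 8.51 to 10.5 in high and 8.05 to 8.76 in low libraries. It also overlapped in axillary nodes, at 7.63 to 8.36 in high and 6.58 to 8.58 in low libraries. All 9 high libraries and 7 of 9 low ones had the peak. Region 1, outside the gene, had a peak in 3 high libraries, 1 per organ, and in 0 low ones, and region 3 in 1 mesenteric high library. These regions were in too many or too few libraries for the presence test described below.

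**Figure D2:**
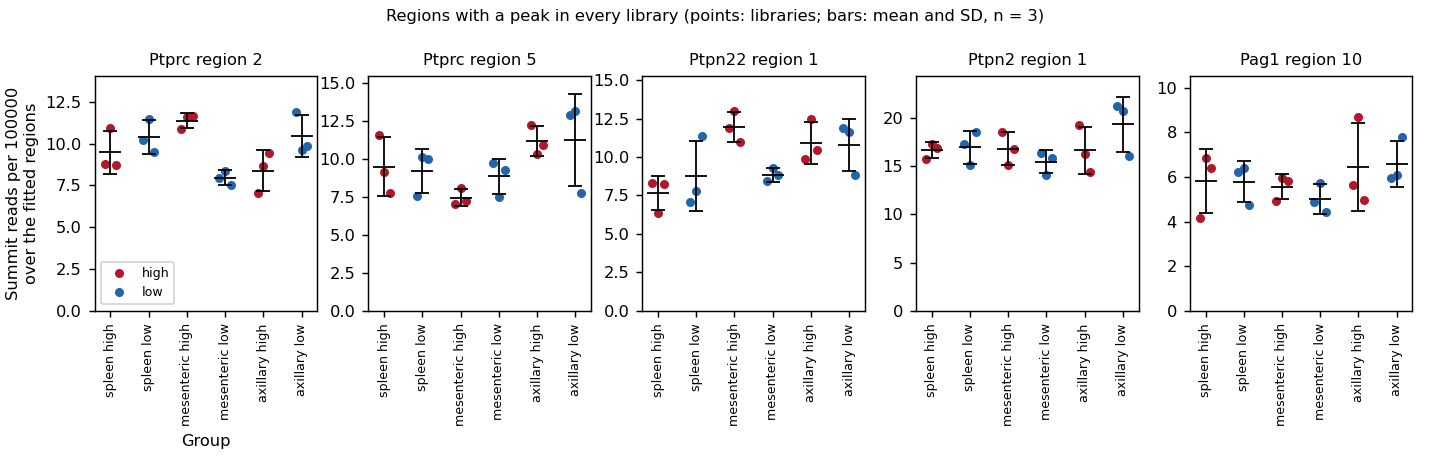
Summit reads per 100000 summit reads over the 8446 fitted regions (y axes, from 0) in each group (x axes) for the 5 regions with a peak in all 18 libraries; points are libraries, bars the mean and SD (n = 3). At Ptprc region 2 the mesenteric high points (mean 11.4) stand above the mesenteric low points (mean 7.95) and the axillary high points below the axillary low points.

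Ptpn22 encodes the phosphatase PEP, which binds Csk and dephosphorylates Lck and Zap70, and variants of the human gene are known for their link to autoimmunity. Its 3 regions all lay inside the gene. Both Ptpn22 windows lie inside the gene, which begins at position 103856575 of chromosome 3, and the window not shown overlapped no region. Region 1 (chr3:103859855-103860535) covers the open window printed above and had a peak in all 18 libraries. Its summit reads were 34, 37 and 32 in mesenteric high and 19, 21 and 20 in mesenteric low libraries. They were 18, 14 and 18 in spleen high and 16, 17 and 24 in spleen low libraries, and 21, 23 and 21 in axillary high and 24, 23 and 17 in axillary low libraries. As at Ptprc region 2, the 3 mesenteric high libraries were the highest of all 18.

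Scaled, Ptpn22 region 1 averaged 11.96 ± 1.00 in mesenteric high and 8.84 ± 0.432 in mesenteric low libraries, with no overlap, and 7.65 ± 1.095 in spleen high and 8.76 ± 2.31 in spleen low libraries, with overlap (SD, n = 3 each). The mesenteric difference, high minus low, was 0.43 ± 0.20 (SE) on the log2 scale with an unadjusted p of 0.0291 and a limma adjusted p of 0.312. It and Ptprc region 2 were the 2 of the 5 fitted regions that reached an unadjusted p of 0.05 in mesenteric nodes, where 12.7% of the 8446 regions did. Over both fractions the axillary libraries averaged 10.8 ± 1.38, the mesenteric libraries 10.4 ± 1.84 and the spleen libraries 8.21 ± 1.73 (SD, n = 6 each). Axillary minus spleen was 0.42 ± 0.14 (SE) with a limma adjusted p of 0.0486, in a contrast in which 7.22% of regions were called, and mesenteric minus spleen was 0.35 ± 0.14 with an adjusted p of 0.178, where 1.62% were called. The F test over the 3 organs called 13.7% of the 8446 regions and 0 of the 5 of these genes, with adjusted p-values of 0.0519 at Ptpn22 region 1 and 0.0561 at Ptprc region 5. With the fragment length class as a covariate axillary minus spleen was 0.31 with an adjusted p of 0.461, and with the authors' fold it was 0.10 with an adjusted p of 0.619. The adjusted p ranged over 0.0170 to 0.619 in the 23 alternatives, of which 6 kept the call. Leaving out a single library kept it for spleen low replicate 3, mesenteric low replicate 2, axillary high replicate 1 and axillary low replicate 3, and ended it for each of the other 14, with adjusted p-values of 0.05003 to 0.146.

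Region 2 of Ptpn22 (chr3:103867901-103868513) had a peak in 14 libraries, 8 high and 6 low. Its raw summit reads were 15, 22 and 18 in mesenteric high and 9, 10 and 18 in mesenteric low libraries. The authors' fold also overlapped there, at 7.15 to 10.9 in high and 6.32 to 11.4 in low libraries. In libraries with a peak, reads were 11 and 10 in spleen high and 11 in spleen low ones. In axillary nodes they were 11, 18 and 12 in high and 8 and 13 in low libraries with a peak. Region 3 (chr3:103885900-103886378) was found in 12 libraries, 6 high and 6 low. In axillary nodes 0 of 3 high libraries had the peak of region 3 and 3 of 3 low libraries had it, with 11, 7 and 8 reads in the low ones. Of all 33115 regions, 0.217% showed that pattern in axillary nodes, and 3 libraries against 3 allow no exact two-sided p below 0.10. In the spleen 3 of 3 high libraries and 1 of 3 low libraries had it, and in mesenteric nodes 3 of 3 high libraries and 2 of 3 low libraries.

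Ptpn6 encodes SHP-1, a cytoplasmic phosphatase that inhibitory receptors recruit through their phosphorylated tyrosine motifs. It had 1 region that most libraries shared, region 4 (chr6:124732866-124733369), inside the gene and 5592 bp from its nearer end, with a peak in 16 libraries. Its summit reads were 19, 15 and 10 in mesenteric high and 9, 14 and 10 in mesenteric low libraries, and 10, 13 and 14 in spleen high and 10, 21 and 10 in spleen low libraries. In the axillary libraries with a peak, 2 of 3 in each fraction, they were 11 and 12 in high and 10 and 9 in low libraries. These values overlapped between the fractions in spleen and mesenteric nodes. The axillary values, from 2 of 3 libraries in each fraction and not scaled for depth, were not compared. The other 3 regions of Ptpn6 were peaks of 1 library each.

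Ptpn2 encodes TC-PTP, a phosphatase of Lck, Fyn and the Jak and Stat proteins of cytokine signalling. Its single region, on chromosome 18, is 1137 bp wide and spans an end of the gene, which its centre misses by 3 bp. By the authors' −log10 p it ranked above a median of 86.5% of the peaks of a library, the highest rank of the 36 regions. Its summit reads were 53, 43 and 49 in mesenteric high and 37, 32 and 36 in mesenteric low libraries. They were 34, 38 and 37 in spleen high and 39, 33 and 39 in spleen low libraries, and 41, 30 and 29 in axillary high and 43, 41 and 31 in axillary low libraries. After scaling, the groups overlapped in every organ, with 16.7 ± 1.56 over high and 17.3 ± 2.45 over low libraries (SD, n = 9 each), and high minus low was −0.04 with a 95% interval of −0.20 to 0.12 on the log2 scale and a limma adjusted p of 0.885.

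Csk encodes the kinase that phosphorylates the inhibitory tyrosine of Lck and Fyn. Of its 6 regions, 4 lay inside the gene. Region 3 (chr9:57640376-57640828) had a peak in 17 libraries and lacked one in spleen high replicate 1. Its summit reads were 27, 20 and 20 in mesenteric high and 21, 15 and 11 in mesenteric low libraries, 16 and 20 in spleen high and 15, 17 and 18 in spleen low libraries, and 17, 10 and 13 in axillary high and 17, 15 and 16 in axillary low libraries. The raw values overlapped between the fractions in each organ. Region 4 (chr9:57645185-57645817), which overlaps the inner Csk window printed above, was present in 5 high libraries and 4 low libraries of 9 each, and in 5 of 6 spleen, 3 of 6 mesenteric and 1 of 6 axillary libraries. Fisher's exact test of the fractions gave a two-sided p of 1, and the exact test over the 3 organs an unadjusted p of 0.114 and an adjusted p of 0.385. The remaining 4 Csk regions had a peak in 1 to 4 libraries.

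Pag1 encodes a transmembrane adaptor that, once phosphorylated, brings Csk to the membrane. It is the longest of the 6 genes at 146206 bp and held 17 of the 36 regions, 8 inside the gene and 9 outside. Region 10 (chr3:9853058-9853679), 19685 bp beyond the gene's higher-coordinate end, had a peak in all 18 libraries, and region 12 (chr3:9865486-9866125) had one in 17. Region 9 (chr3:9833394-9833918), at that end of the gene, had a peak in 13.

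At Pag1 region 10 the summit reads were 14, 17 and 17 in mesenteric high and 11, 13 and 10 in mesenteric low libraries. They were 9, 15 and 14 in spleen high and 14, 14 and 10 in spleen low libraries, and 12, 16 and 10 in axillary high and 12, 12 and 15 in axillary low libraries. Scaled, they averaged 5.93 ± 1.31 over high and 5.80 ± 1.03 over low libraries (SD, n = 9 each), and the groups overlapped. At Pag1 region 12 the raw summit reads were 23, 22 and 23 in mesenteric high and 15, 21 and 13 in mesenteric low libraries. The authors' fold over local background overlapped there, at 8.09 to 9.48 in mesenteric high and 7.06 to 9.75 in mesenteric low libraries. Raw reads were 13 and 21 in the 2 spleen high libraries with a peak and 13, 19 and 10 in spleen low libraries. In axillary nodes they were 16, 14 and 11 in high and 11, 19 and 17 in low libraries. Region 16 of Pag1 was called in 7 high and 5 low libraries, with 1 axillary high library among them. Its raw reads were 9 to 17 in high and 6 to 8 in low libraries. The authors' fold was 7.95 to 12.4 in high and 5.58 to 7.17 in low libraries, without overlap. Region 3 had the reverse order, with 9 to 10 reads in 5 high libraries and 13 in 1 low library. Both regions were picked by these values, and their peak height was not tested.

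The number of Pag1 regions with a peak was 12 to 14 in mesenteric high and 5 to 8 in mesenteric low libraries, 6 to 9 in spleen high and 4 to 10 in spleen low libraries, and 5 to 7 in axillary high and 5 to 8 in axillary low libraries. All 3 mesenteric high libraries thus exceeded the other 15. Over all 36 regions the number was 24.7 ± 0.577 in mesenteric high and 16.0 ± 2.00 in mesenteric low libraries (SD, n = 3 each). Over all 33115 regions it was 22705 in mesenteric high and 17062 in mesenteric low libraries on average. In proportion, the Pag1 counts differed more between these 2 groups than the counts over all regions. The mesenteric high libraries were also the deepest, and the part of depth in the Pag1 counts was not tested. Of the mesenteric libraries, 3 of 3 high ones and 0 of 3 low ones had the peak of Pag1 region 3, a pattern of 3.14% of all regions.

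**Figure D3:**
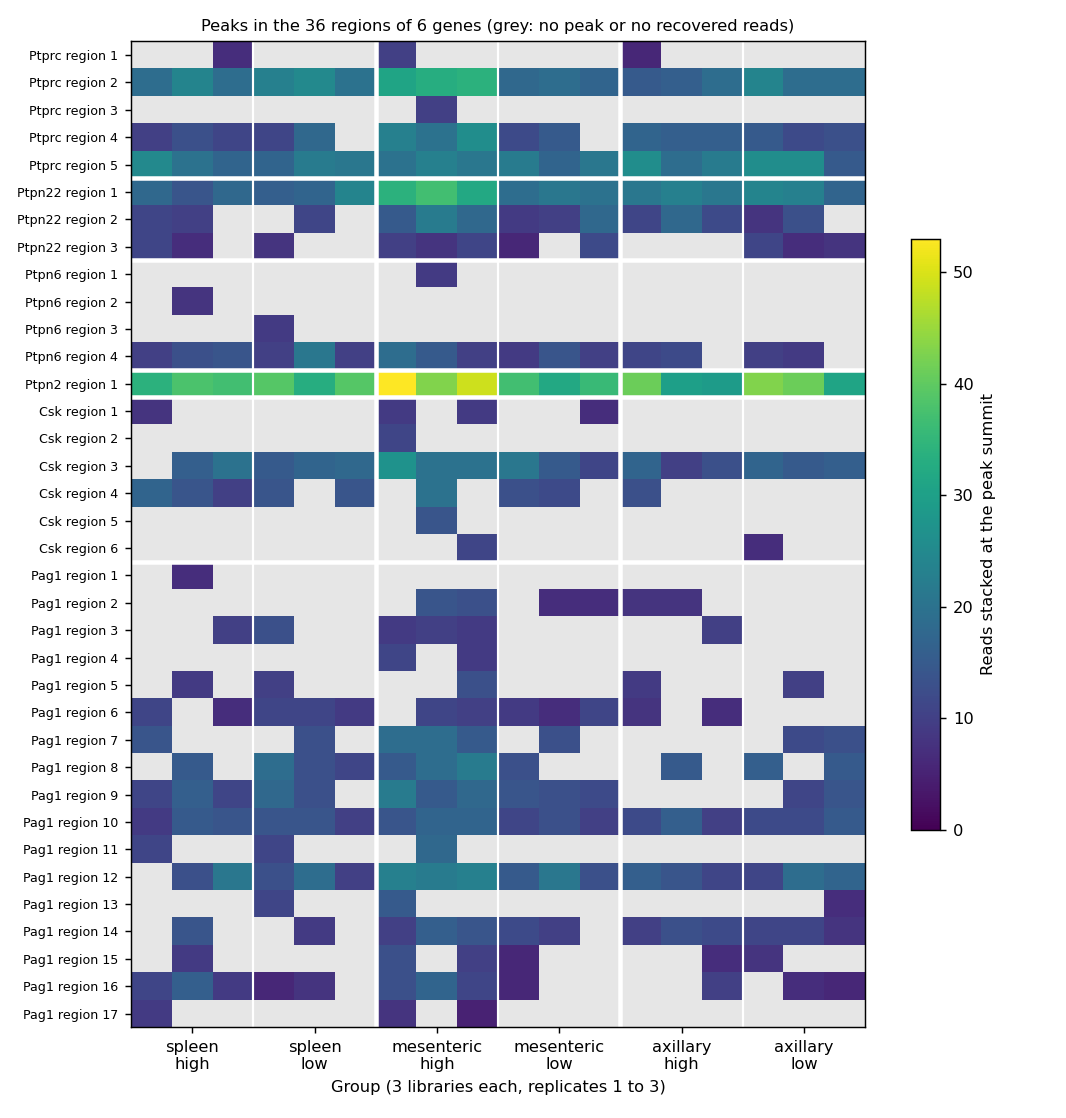
Reads stacked at the peak summit (colour) in each of the 36 regions (rows, by gene) and 18 libraries (columns, by group); grey marks no peak, or in 2 cases a peak whose reads were not recovered. The 5 unbroken rows are the regions open in all 18 libraries, and the mesenteric high columns have the most filled cells, 24 to 25 of 36.

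The presence of a peak was compared between the fractions for regions with a peak in 6 to 12 libraries. No region of the 6 genes passed, and none of all regions did. Fisher's exact test called 0 of 5737 regions (0.0%) after Benjamini-Hochberg adjustment, and 350 (6.1%) had an unadjusted p under 0.05, 335 of them with more high and 15 with more low libraries. That split was 81 and 82 when the lists were shortened to equal length, and 158 and 34 when the reads were thinned to equal depth. Of the 9 regions of the 6 genes that were tested, 0 had an unadjusted p under 0.05. The smallest was that of Pag1 region 3, present in 5 high libraries and 1 low library (unadjusted p of 0.131, adjusted p of 0.811). Ptpn22 region 3 and Pag1 regions 6 and 7 were in as many high as low libraries.

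Between organs, the exact Fisher-Freeman-Halton test called 0 of 7630 regions (0.0%) with a peak in 5 to 13 libraries, and 851 (11.2%) had an unadjusted p under 0.05. Of 12 regions of the 6 genes tested, 0 had one. The smallest, an unadjusted p of 0.0651 each, belonged to 2 Pag1 regions with opposite orders. Region 9, at the gene end, had a peak in 6 of 6 mesenteric, 5 of 6 spleen and 2 of 6 axillary libraries, and region 14 (chr3:9886996-9887661), 53645 bp beyond that end, in 5 of 6 mesenteric, 2 of 6 spleen and 6 of 6 axillary libraries. With the reads of each library thinned to the shallowest one, region 14 had a peak in 4 of 6 mesenteric, 1 of 6 spleen and 6 of 6 axillary libraries (exact unadjusted p of 0.0181, adjusted p of 0.471).

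Summit reads of the 5 regions open in all libraries were compared between the fractions across the 3 organs. High minus low lay between −0.06 and 0.09 on the log2 scale, and limma called 0 of the 5 and 107 of 8446 regions (1.27%), of which 71 were higher and 36 lower. The median over the 5 was 0.02, and over all 8446 it was 0.01. The 95% intervals reached from −0.20 to 0.24 at Ptprc region 2, −0.29 to 0.17 at Ptprc region 5, −0.13 to 0.32 at Ptpn22 region 1 and −0.26 to 0.31 at Pag1 region 10. These intervals set the sizes of difference that the data leave possible at each region. In simulated data for this comparison, drawn as counting noise around each region's mean, 97% of 200 regions changed by 1 log2 unit were called. There were 11 false calls among the unchanged regions of the 8446. The simulation held no spread between organs or replicates beyond library totals, and its change was larger than any of the 5 differences above.

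**Figure D4:**
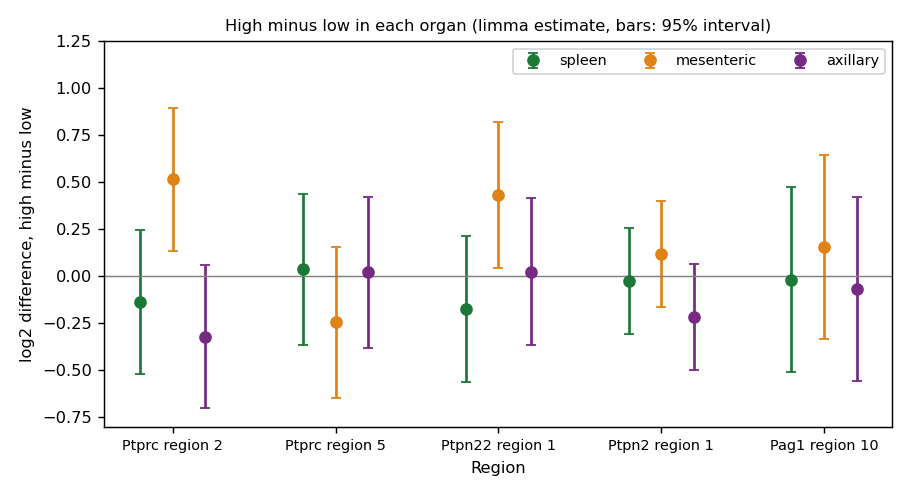
High minus low difference of summit reads on the log2 scale (y axis) in each organ for the 5 regions (x axis); points are limma estimates and bars 95% intervals. In mesenteric nodes the intervals of Ptprc region 2 (0.52) and Ptpn22 region 1 (0.43) lie above 0, without passing adjustment, and all others include 0.

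By the likeness of scaled summit reads over the 18 libraries, summed per gene, the closest of 61 genes with a mean of at least 100 summit reads were as follows. Ptprc was closest to Sertad2 (Pearson r of 0.614) and Tnfaip3 (0.608). Ptpn22 was closest to Atxn7 (0.600) and Xylt1 (0.574). Ptpn2 was closest to Pfkp (0.704) and Ext1 (0.558). Pag1 was closest to Tdrd3 (0.711) and Diaph3 (0.609). The median r over the 61 genes was 0.119 to 0.203. These values are descriptions across libraries that share totals, depth and fragment length. Ptpn6 and Csk had no region open in all libraries and were not compared.

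Other genes of the same signalling step had no called region between the fractions. Of 35 further tyrosine phosphatase genes, 25 had 88 regions, and limma called 0 of the 13 fitted ones between the fractions. All 17 genes of kinases and substrates that these phosphatases act on had regions, 83 in all, and 0 of 11 fitted ones were called. Of 20 adaptor and partner genes, 19 had 51 regions, and 0 of 8 fitted ones were called between the fractions. The F test over the 3 organs called 1 of these 8, 0 of the 13 phosphatase regions and 0 of the 11 kinase and substrate regions. Over all 8446 fitted regions, 1.27% were called between the fractions and 13.7% by the F test over organs. By presence, 1 of 18, 1 of 15 and 1 of 8 regions tested in these lists had an unadjusted p under 0.05 between the fractions, beside 6.1% of all regions, and 3 of 20, 2 of 20 and 2 of 11 had one between organs, beside 11.2%. None passed adjustment. The regions with such a p between the fractions, chosen by it, lay 54077 bp outside Fyn, a kinase that CD45 and Csk act on, present in 8 high libraries and 1 low library (Fisher's exact unadjusted p of 0.00337, adjusted p of 0.395), inside Nfam1, a receptor that signals through an immunoreceptor tyrosine motif, present in 7 high libraries and 1 low library, and inside Ptpn1, the close relative of Ptpn2, present in 8 high libraries and 3 low libraries.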

How the data were processed

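Chromatin accessibility was measured by ATAC-seq in 18 libraries, 3 per group. Per the submitters' processing notes, Trimmomatic 0.33, Bowtie2, bedtools and MACS were used on build mm10; the sources used here give no other version, duplicate handling or read shifting. The authors deposited 1 peak list per library with a score, a −log10 p, a −log10 q and a fold enrichment (ratio over local background) per peak, all the authors' own values; the smallest deposited −log10 p was 5.001. Whether replicates are separate animals is not in the labels, so the p-values cover the spread of these samples only, and that spread may be technical.

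Of 314829 deposited peaks, 314425 on chromosomes 1 to 19 and X were merged by overlaps of at least 1 bp into regions; 404 were set aside. Whole summit reads were recovered as the only pileup that gave both the deposited fold and −log10 p within 0.002, in 99.3% of peaks. Regions recovered in all 18 libraries (8446) were fitted with limma 3.58.1 (R 4.3.3, trend, 6 group means) on log2 of summit reads over the library total; fitting only regions seen in every library leaves out those gained or lost. Presence was tested with exact tests (Python 3.11.15, scipy 1.17.1). All tests were adjusted by Benjamini-Hochberg over all regions tested, at 0.05. Genes and promoters came from RefSeq (GRCm38.p6). The method was tested on simulated data. Values are given in every library for the strongest region of each gene and for regions with an unadjusted p under 0.05 in the tests above. The genes and lists were chosen with earlier results of these data known. The alternatives changed the normalization, threshold, overlap, depth, list length, filter, replicate block and libraries used; fragment length class was added after seeing the data.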

Additional observations from a re-analysis of the deposited data

Results flagged for a closer look

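At Ptprc region 2, inside the CD45 gene, the scaled summit reads of the fractions were ordered in opposite ways in 2 organs. All 3 mesenteric high libraries were above all 3 mesenteric low ones, and all 3 axillary high libraries were below all 3 axillary low ones. The closest axillary values were 9.43 in high and 9.61 in low libraries, and the raw reads there tied at 19. Neither organ passed alone, with limma adjusted p-values of 0.177 in mesenteric and 0.626 in axillary nodes. The share of all regions with both orders was not computed. The mesenteric difference exceeded the axillary one by 0.84 ± 0.27 (SE) on the log2 scale, with an unadjusted p of 0.00267 and a limma adjusted p of 0.288 over 8446 regions, so it did not pass the threshold. Over 22 alternatives it stayed between 0.62 and 0.93, with adjusted p-values of 0.198 to 0.483. The mesenteric high libraries were the deepest and the axillary ones the shallowest on average, and the part of depth and fragment length in this difference was not tested beyond those alternatives, which include the fragment length class.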

How the results depend on the processing

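No region of the 6 genes was called between the fractions, by presence or by summit reads, under any of the 25 alternatives of either, and 0 were called in the test of fraction by organ under its 22. Over all regions, high against low called 60 with the genome background as the scale, 32 with the deposited fold, 67 with a mean of at least 30 summit reads, and 71 (without mesenteric high replicate 2) to 124 with 1 library left out, beside 107; the organ test called 2818, 2633 and 437 under the same 3 settings, 288 with the fragment class covariate (chosen after seeing the data) and 892 to 1134 with 1 library left out, beside 1154; fraction by organ called 0 with the deposited fold, 33 with the fragment class covariate and 4 to 25 with 1 library left out, beside 19, with under 10 for 9 of the 18 libraries, spleen and mesenteric ones. Of the regions of the 6 genes, 2 were called between a pair of organs; there was 1 with the genome background (Ptpn22 region 1), 1 with the deposited fold (neither of those 2, but Ptprc region 2 in mesenteric minus axillary at 0.35 with an adjusted p of 0.00904), 0 at a mean of 30 reads, where only Ptpn2 region 1 could be fitted, 0 with the fragment class covariate and 0 to 2 with 1 library left out. The 2 calls were counted over 3 contrasts, which singly called 1.62%, 7.22% and 10.9% of the 8446 regions. The share of all regions called in any pair was not computed. The genome background and the deposited fold gave a median of all regions in mesenteric minus axillary of 0.19 and 0.21 on the log2 scale, beside 0.02, and 95.2% and 99.8% of its calls were higher, beside 51.2%. With the genome background, Ptpn22 region 1 in mesenteric minus spleen was 0.55 with a limma adjusted p of 0.00539, where the median of all regions was 0.21, beside 0.01.

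Deviations from the group means correlated at −0.03 to 0.04 over 45 pairs of libraries with the same replicate number. Over 90 pairs with different numbers the correlations were −0.07 to 0.03. At few reads per peak such correlations cannot exclude pairing. With the replicate block 108, 1163 and 19 regions were called in the 3 summit tests. Of the 6 genes, 1 region was then called between organs, since Ptpn22 region 1 in axillary minus spleen had a limma adjusted p of 0.0503. At an unadjusted p under 0.05, presence between organs had 1 region of the 6 genes where a peak had to cover 50% of the region, 1 at equal list length, 1 at equal depth and 1 to 3 with 1 library left out, of 10 to 13 tested and beside 7.41%, 6.10%, 7.07% and 13.5% to 18.02% of all regions, and presence between fractions 0 to 1 of 9 to 11 with 1 library left out, beside 7.03% to 10.8%; none passed adjustment. The causes were not tested. At this depth a missing peak does not show that a region was closed.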
